A study of Homo sapiens with 2 samples.

Results

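OTX2 peaks that lay 1 to 5 kb upstream of a protein-coding gene were examined in D283 tumorspheres. D283 is an established medulloblastoma cell line with features of the Group 3 and Group 4 subgroups, and tumorspheres are floating cell clusters used to study stem and progenitor cells. The cells were untreated controls that express OTX2, grown with epidermal growth factor and basic fibroblast growth factor. An OTX2 antibody pulled down chromatin for the ChIP library, and sheared chromatin without antibody gave the Input library of the same line. With 1 library per condition, no value has a replicate error and no test between conditions was made. Every interval covers only counting error or, for medians, the spread among the peaks of 1 list.

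A peak was a member when its summit, the base of highest coverage, lay more than 1 kb and up to 5 kb upstream of the transcription start site (TSS) of a protein-coding gene and not within 1 kb of any such TSS. For the TSS, the 5′ end of each gene record in GENCODE release 44 on GRCh38 was taken, and chromosomes 1 to 22 were used. Of 137412 peaks in all, 133985 lay on these chromosomes and 4221 were members, which is 3.15% (Wilson 95% interval 3.06% to 3.25%). Another 8233 peaks had their summit within 1 kb of a TSS and are called core promoter peaks. A further 4814 lay 1 to 5 kb downstream of a TSS and upstream of none, and 116717 lay farther away. After duplicate removal the ChIP library held 61259377 fragments and the Input library 22521186, so the shallower Input limits the precision of every fold enrichment.

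OTX2 is a homeodomain transcription factor that patterns the forebrain and midbrain and is kept at high levels in many Group 3 and Group 4 medulloblastomas. Its homeodomain recognises the bicoid-type sequence TAATCC. Transcription factors can bind at the core promoter, where the transcription machinery assembles, or at regulatory DNA outside it. DNA a few kilobases upstream of a gene can hold promoter-proximal elements or enhancers, and it can also hold the start of a neighbouring transcript.

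Sequence on the peaks' build was at hand for 73 members, whose summits fell in the promoter window of a RefSeq gene (GRCh38.p14, 250 bases before to 50 after the gene's start). For 70 of these the window belonged to another gene than the one counted as downstream of the peak. All 61 bases around the summit lay in the window for 60 members. These all lie at the start of a RefSeq gene, whereas 14.2% of all members lay within 1 kb of another annotated start. Their motif share need not hold for the other members. TAATCC or the related TAATCT, on either strand, occurred in 7 of these 60 stretches (11.7%, Wilson 95% interval 5.77% to 22.2%). The share was 9.48% (8.52% to 10.5%) in 3228 stretches around core promoter summits, 17.8% (12.9% to 24.0%) in 180 around downstream summits and 21.0% (18.2% to 24.0%) in 778 around farther summits. The middle 61 bases of all 33725 windows held a motif in 2.72% (2.55% to 2.90%), and whole windows of 300 bases in 12.8%. The members' interval lay above the share of the middle 61 bases of all windows and overlapped those of the other 3 groups of summits. The stretches below are those of the 7 that do not overlap an exon of a protein-coding gene. They are written 5′ to 3′ on the strand of the named promoter, with the motif or its reverse complement in capitals.
TSPAN31 window, member of AGAP2, chr12:57744938-57744998, plus strand: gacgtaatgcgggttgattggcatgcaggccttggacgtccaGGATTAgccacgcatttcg
LOC107984727 window, member of CHSY1, chr15:101256023-101256083, minus strand: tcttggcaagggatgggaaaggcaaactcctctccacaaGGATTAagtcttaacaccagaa
NR2F1-AS1 window, member of NR2F1, chr5:93579867-93579927, minus strand: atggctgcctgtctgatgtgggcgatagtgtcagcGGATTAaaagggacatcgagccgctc
WDR49 window, member of WDR49, chr3:167658108-167658168, minus strand: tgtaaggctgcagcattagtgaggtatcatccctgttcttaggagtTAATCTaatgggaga
H2AC18 window, member of H3C14, chr1:149842854-149842914, minus strand: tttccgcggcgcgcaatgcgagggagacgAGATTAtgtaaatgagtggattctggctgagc
CELF2 window, member of CELF2, chr10:10796629-10796689, plus strand: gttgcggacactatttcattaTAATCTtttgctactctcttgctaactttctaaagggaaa

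The TSPAN31 stretch belonged to the highest peak of these, with 148 fragments at the summit and a fold enrichment of 20.2. Its GGATTA started 12 bases after the summit. The peak counts as upstream of AGAP2, a GTPase-activating protein gene, but lay 71 bases before the RefSeq start of TSPAN31, a tetraspanin gene. The member of NR2F1, an orphan nuclear receptor gene of the developing brain, had 47 fragments and a fold enrichment of 7.13, and its motif started 5 bases after the summit. A member of TPRX1 lay in the RefSeq promoter window of CRX, the photoreceptor homeobox gene of the OTX family. It had a fold enrichment of 12.9 and a GGATTA that started 2 bases after its summit, in a stretch that overlaps an exon and is not shown. The members of CHSY1, WDR49 and CELF2 had 68, 51 and 36 fragments and fold enrichments of 10.2, 6.98 and 5.51. CHSY1 encodes a chondroitin synthase and CELF2 an RNA-binding protein that regulates splicing. H2AC18 and H3C14, with 129 fragments and 5.99, belong to the histone genes, whose copies are much alike, so the placement of reads there is uncertain.

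Members were of moderate height. The deposited fold enrichment, which is the ChIP coverage at the summit over the local input, had a median of 5.54 (95% order-statistic interval 5.41 to 5.70) and quartiles of 3.99 and 9.27. The median was 5.25 (5.21 to 5.34) at core promoters, 5.13 (5.07 to 5.21) downstream and 6.25 (6.23 to 6.26) farther away. The members' median thus lay between those of the promoter peaks and the distal peaks. The intervals did not overlap, but they treat the peaks of 1 library as independent and are no test of a difference. A fold enrichment of at least 10 was reached by 930 members (22.03%, Wilson 95% interval 20.8% to 23.3%). Over all peaks of chromosomes 1 to 22 the share was 26.3%. It was 13.9% at core promoters, 17.7% downstream and 27.7% farther away. At least 20-fold enrichment was seen for 206 members (4.88%), against 1.85% of core promoter peaks and 7.29% of farther peaks.

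In fragments, the members ranged from 15 to 409 at the summit, with a median of 48. Their median length was 433 bp, compared with 526 bp at core promoters and 436 bp farther away. The local input implied by the deposited values was at its floor for 33.0% of members and 32.2% of core promoter peaks. It was at least 3 times the floor for 3.72% of members and 3.43% of core promoter peaks. The background behind the fold enrichment was therefore of similar level in both groups.

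**Figure D1:**
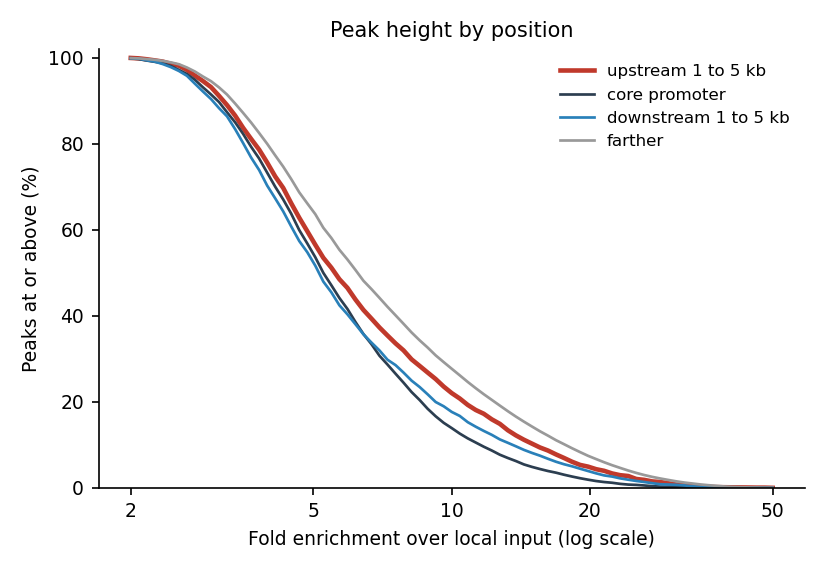
Share of peaks (y axis, percent) at or above each fold enrichment (x axis, log scale) for 4221 proximal upstream, 8233 core promoter, 4814 downstream and 116717 farther peaks. At a fold enrichment of 10 the proximal upstream curve stands at 22.03%, above core promoter peaks at 13.9% and below farther peaks at 27.7%.

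Peaks became sparser with distance from the TSS, and the fall was steeper for weak peaks than for strong ones. Members had a density of 59.8 summits per Mb (Poisson 95% interval 58.0 to 61.7) over the 70.5 Mb of DNA that meets the rule. Within 1 kb of a TSS the density was 237 per Mb. At 20 to 50 kb upstream, and more than 20 kb from every TSS, it was 47.8 per Mb (46.9 to 48.6). The first step of 500 bp beyond 1 kb held 82.2 summits per Mb (76.3 to 88.4). The step from 1.5 to 2 kb held 65.1 and that from 2 to 2.5 kb held 62.0. From 2.5 kb on, the 5 steps lay between 52.8 and 55.7 per Mb, and their intervals overlapped one another. The density at 5 to 10 kb was 49.4 (47.8 to 50.9). A summit upstream of more than 1 gene counts in each step it falls in.

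Peaks with a fold enrichment under 5 reached 25.8 per Mb (24.7 to 27.1) in the interval from 1 to 5 kb and 17.7 (17.2 to 18.2) at 20 to 50 kb, a ratio of 1.46. Peaks with a fold enrichment of at least 10 reached 13.2 per Mb (12.3 to 14.1) and 12.6 (12.2 to 13.0), a ratio of 1.05. The intervals of the strong peaks overlapped, and those of the weak peaks did not. Weak peaks fell from 38.3 per Mb at 1 to 1.5 kb to 21.2 at 4.5 to 5 kb. Strong peaks were at 15.4 (12.9 to 18.2) and 11.8 (9.70 to 14.3) in the same steps, with overlapping intervals. Within 1 kb of a TSS, by contrast, strong peaks were also denser, at 32.9 per Mb or 2.61 times the level at 20 to 50 kb.

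On the other side of the TSS, summits 1 to 5 kb downstream had a density of 79.9 per Mb (77.8 to 82.0), which includes those that are also upstream of another gene, 5689 in all. Weak peaks were denser downstream than upstream, at 38.5 (37.04 to 39.9) against 25.8 per Mb. Strong peaks were at 13.8 (13.0 to 14.7) downstream and 13.2 upstream, within each other's intervals.

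**Figure D2:**
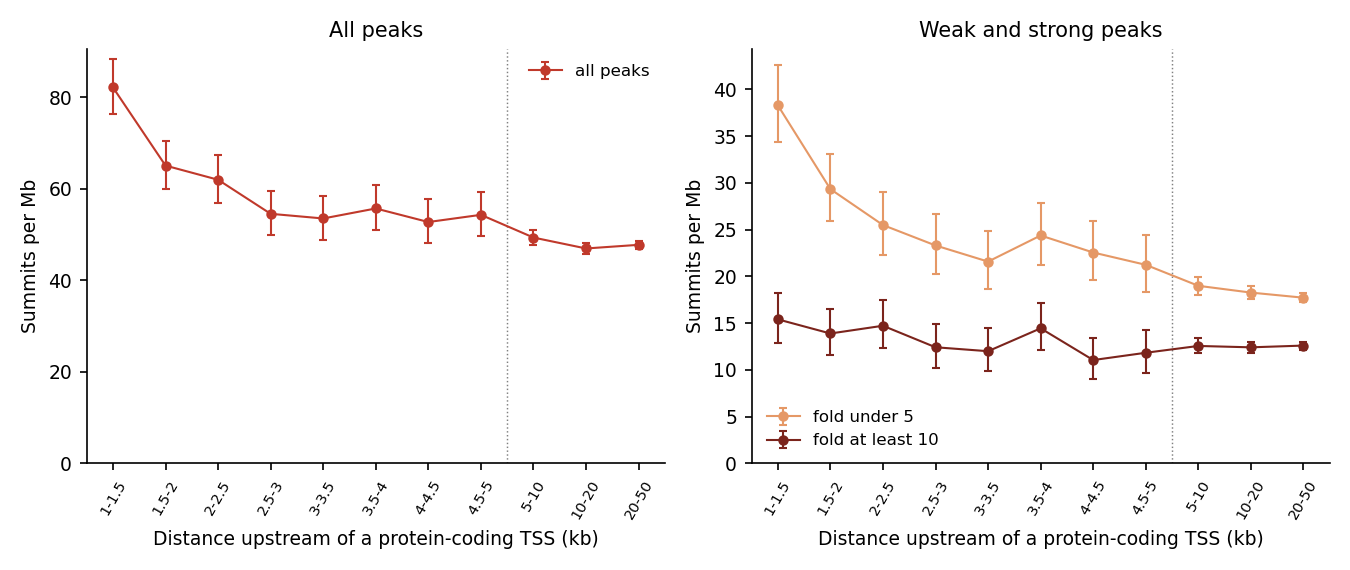
Density of OTX2 summits (y axis, summits per Mb of DNA in each step) by distance upstream of a protein-coding TSS (x axis, kb), for all peaks on the left and for peaks with a fold enrichment under 5 and of at least 10 on the right. Bars are Poisson 95% intervals and the dotted line marks 5 kb. All peaks fall from 82.2 to 54.3 per Mb within 5 kb, and the strong peaks stay between 11.1 and 15.4.

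Members lay outside protein-coding genes more often than OTX2 peaks in general, which the rule favours by taking DNA upstream of genes. Of the members, 67.7% lay outside protein-coding genes, 26.1% in an intron and 6.18% in an exon of such a gene. Among all peaks of chromosomes 1 to 22, 47.5% lay outside protein-coding genes and 47.8% in introns. LncRNA genes held 662 members (15.7%) outside protein-coding genes, and 15.0% of farther peaks. Counted only over peaks outside protein-coding genes, this was 662 of 2859 members and 17552 of 56474 farther peaks, a lower share for members. The TSS of the rule is only the outermost start of each gene record. Within 1 kb of another annotated start, of a protein-coding transcript or of a lncRNA, lay 598 members (14.2%, Wilson 95% interval 13.1% to 15.3%). Over all peaks this share was 13.0%, which counts every core promoter peak. It was higher over downstream peaks, at 32.3%, and lower over farther peaks, at 6.06%. The start belonged to a protein-coding gene for 367 members and to a lncRNA for 253. Members near such a start had a median fold enrichment of 5.07, and those over 1 kb from every start 5.66. A fold enrichment of at least 10 was reached by 16.9% and 22.9% of them.

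Member summits lay close to other summits. Another summit was found within 2 kb for 1711 members (40.5%), compared with 28.1% of all peaks. The median distance to the next summit was 2486 bp for members, 3137 bp for core promoter peaks and 4532 bp for farther peaks. In 475 members (11.3%) the body of the peak, though not its summit, reached within 1 kb of a protein-coding TSS. The longest member, 4856 bp, lay on chr1:149884513-149889368 and covered the whole of H2AC20, a histone gene, with its summit 2104 bp upstream. Its fold enrichment was 8.72 over a local input of 17.0, well above the members' median of 5.00.

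At least 1 member was found for 3737 of 18978 protein-coding genes, which is 19.7% (19.1% to 20.3%). Of these, 3128 genes had 1 member, 548 had 2, 58 had 3 and 3 had 4. There were 172 members upstream of 2 genes, 73 of them on opposite strands, and 8 upstream of 3 or more. Together the members made 4410 pairs of peak and gene, with a median distance of 2782.5 bp. A summit lay between 5 kb upstream and 2 kb downstream in 10942 genes. For 1339 of them (12.2%) all such summits were members, so that these genes had no summit between 1 kb upstream and 2 kb downstream.

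The 3 genes with 4 members, and the 2 of those with 3 members whose strongest member was highest, were described singly. TANC1, a postsynaptic scaffold gene, had 4 members with fold enrichments of 7.68, 5.06, 3.41 and 9.78 at 1021, 2166, 3510 and 4254 bp. SETD7, which encodes a lysine methyltransferase, had 4 at 20.6, 3.98, 10.7 and 3.11 with rising distance. DMGDH, which encodes dimethylglycine dehydrogenase, had 4 of 2.79 to 4.69, all in introns of another protein-coding gene. OR1J2, an olfactory receptor gene, had 3 members of 43.1, 14.3 and 4.17. MTFR2, a regulator of mitochondrial fission, had 3 of 11.0, 30.5 and 5.12. SETD7, OR1J2 and MTFR2 each had 2 members with a fold enrichment of at least 10, whereas the members of DMGDH and TANC1 were all below 10.

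The 20 members of highest fold enrichment lay between 34.1 and 49.0, with 232 to 389 fragments. Their local input ran from 3.99 to 6.0001 and was mostly below the median of 5.00 over all members. Ranking by fold enrichment, in which pileup is divided by local input, itself favours a low local input. A core promoter peak was also present in 9 of the 20 genes. The share was 57.4% over all genes with a member and 45.0% over all protein-coding genes. The body of another protein-coding gene held 3 of the 20 summits, compared with 1362 of all 4221 members.

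The highest lay upstream of RFK, the riboflavin kinase gene, at chr9:76395788-76396765, outside annotated protein-coding and lncRNA genes. Its summit was 1775 bp upstream, where 331 fragments (Poisson 95% interval 296 to 369) gave a fold enrichment of 49.0. PLAC8L1 followed at 48.5 with 367 fragments (330 to 407), and its summit lay 4226 bp upstream at chr5:146109198-146110285, inside a lncRNA gene. FUOM, which encodes fucose mutarotase, had 312 fragments (278 to 349) and 46.1 at chr10:133360886-133361833. The fragment intervals of these 3 overlapped, so their order is within counting error. None of the 3 genes had a core promoter peak, and neither had OR1J2, whose member at 43.1 came next.

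SNCAIP had the most fragments of the 20, 389 (351 to 430), and its fold enrichment was 41.0, at chr5:122307028-122308496, 3693 bp upstream. SNCAIP encodes synphilin-1 and is duplicated in a subset of Group 4 medulloblastomas. It too had no core promoter peak. ZNF143, a zinc finger transcription factor gene, had 300 fragments and 40.2. Its summit lay 1092 bp upstream, but its peak of 2508 bp spanned chr11:9458751-9461258 and covered the TSS at position 9460319. It was the only peak of the 20 whose body reached within 1 kb of the TSS.

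Among the other members of this group, KLF17, a Krüppel-like factor gene, had a fold enrichment of 38.5. MRC2, a collagen receptor gene, had 37.6, and its summit lay within 1 kb of a lncRNA start. GFRA1, the receptor gene for glial cell line-derived neurotrophic factor, had 35.6 at 2107 bp, in a lncRNA gene. SCAMP1, a secretory carrier membrane protein gene, had 35.1 at 4679 bp and 333 fragments. RIMKLB, which encodes an N-acetylaspartylglutamate synthetase, had 35.0. SLC29A4, a monoamine transporter gene, had 34.4, and NDUFAF4, an assembly factor of mitochondrial complex I, had 34.1. The summits at MARCHF9 (36.0), CCDC87 (35.2) and SH2D6 (34.8) lay in introns of CDK4, CCS and CAPG. That at MARCHF9 also lay within 1 kb of another annotated start of a protein-coding gene. The remaining 4, at TMEM120B, SPACA6, RNF152 and CCDC136, lay between 34.6 and 36.8 outside annotated genes.

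**Figure D3:**
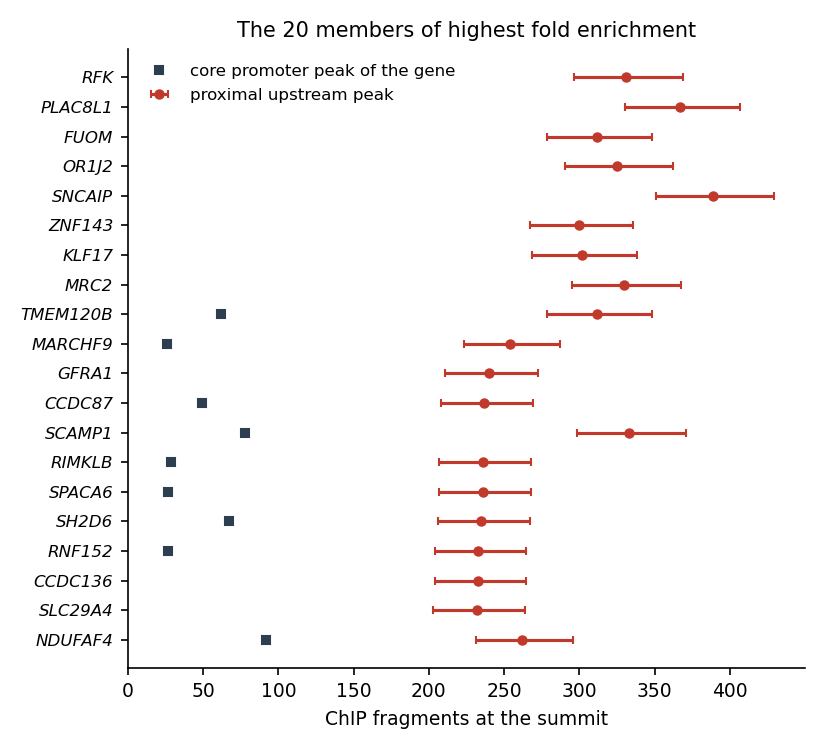
ChIP fragments at the summit (x axis) of the 20 members of highest fold enrichment, ordered from RFK at 49.0 down to NDUFAF4 at 34.1 (y axis, gene), with Poisson 95% intervals. Squares give the strongest core promoter peak of the same gene where there was 1, in 9 of the 20 genes. All 9 had fewer fragments than the upstream peak, which choosing the highest upstream peaks favours.

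Genes with a member often had a core promoter peak as well. This held for 2145 of the 3737 genes (57.4%, Wilson 95% interval 55.8% to 59.0%), compared with 6387 of the 15241 other genes (41.9%, 41.1% to 42.7%). Where both were present, the upstream peak was the higher in fold enrichment for 1111 genes (51.8%, 49.7% to 53.9%). The strongest peak of each kind was used, and the wider upstream interval favours the upstream side in these genes. The medians of the strongest upstream peak and of the core promoter peak were 5.95 and 5.87 in these genes. In genes with no core promoter peak the strongest upstream peak had a median of 6.16. The upstream peak was at least 2 times as high in 446 genes (20.8%), and the core promoter peak in 364 (17.0%).

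The ratio was greatest at TMEM120B, where 312 fragments and a fold enrichment of 36.8 stood 2542 bp upstream and 62 fragments and 3.11 within 1 kb, a ratio of 11.8. At ZC3H7B the values were 32.2 and 2.87. At TRPM6, a magnesium channel gene, they were 25.6 and 2.61. UNC5C, a netrin receptor gene, had 334 fragments and 29.1 upstream against 27 fragments and 3.13, a ratio of 9.28. HDDC2 had 30.1 and 3.37. In all 5 the core promoter peak was under the first quartile of 4.21 for core peaks in this comparison. Choosing genes by this ratio itself favours a low core promoter peak.

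The reverse was found at PLCB2, a phospholipase C gene, with 26 fragments and 2.24 upstream against 178 fragments and 26.5 at the core promoter, 11.8 times higher. MLLT3, a gene of the super elongation complex, had 4.17 and 38.6. HMGB2, a chromatin protein gene, had 2.24 and 19.5, and SNRPE, a spliceosome gene, had 2.90 and 22.999. FAM72D had 3.75 and 33.4, but it has near-identical copies, so its reads could be split among them.

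**Figure D4:**
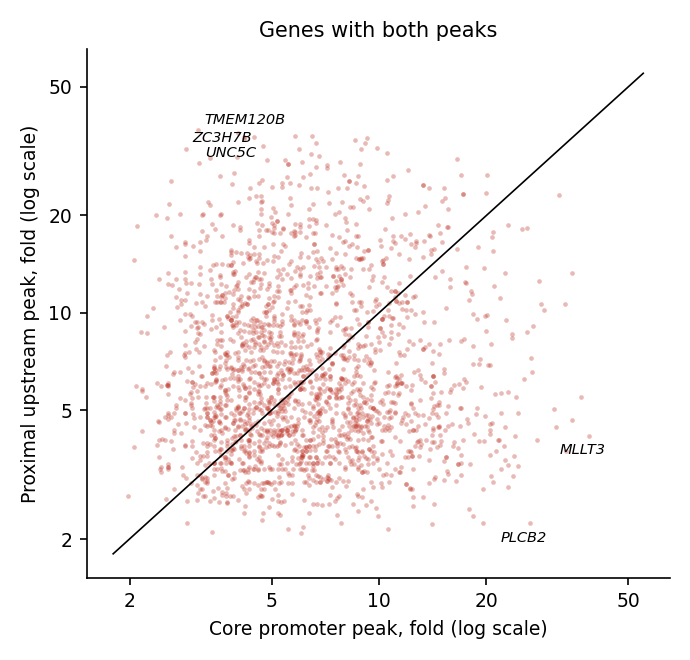
Fold enrichment of the strongest proximal upstream peak (y axis, log scale) against that of the strongest core promoter peak (x axis, log scale) in 2145 genes with both, 1 point per gene. The line marks equal values, and 1111 genes lie above it, with TMEM120B, ZC3H7B and UNC5C far above and PLCB2 and MLLT3 far below.

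The study asked about axon guidance and semaphorin signalling, and members were counted for 6 gene lists. Semaphorins are guidance cues that act through plexin and neuropilin receptors on growing axons. Members were found for 24 of 70 genes of the axon guidance families (34.3%, Wilson 95% interval 24.2% to 46.0%). They were found for 15 of 44 photoreceptor genes (34.1%) and 18 of 54 medulloblastoma and hindbrain regulators (33.3%). The share was 17 of 58 for cell cycle genes (29.3%) and 15 of 47 for neuronal differentiation genes (31.9%). Against 19.7% of all protein-coding genes, every list lay higher, though the intervals of the semaphorin pathway and the cell cycle genes included that share. The intervals of all 6 lists overlapped, and some genes are in more than 1 list. A core promoter peak was present in 74.1% of the cell cycle genes, 48.6% of the axon guidance genes and 38.3% of the neuronal genes, compared with 45.0% of all genes.

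**Figure D5:**
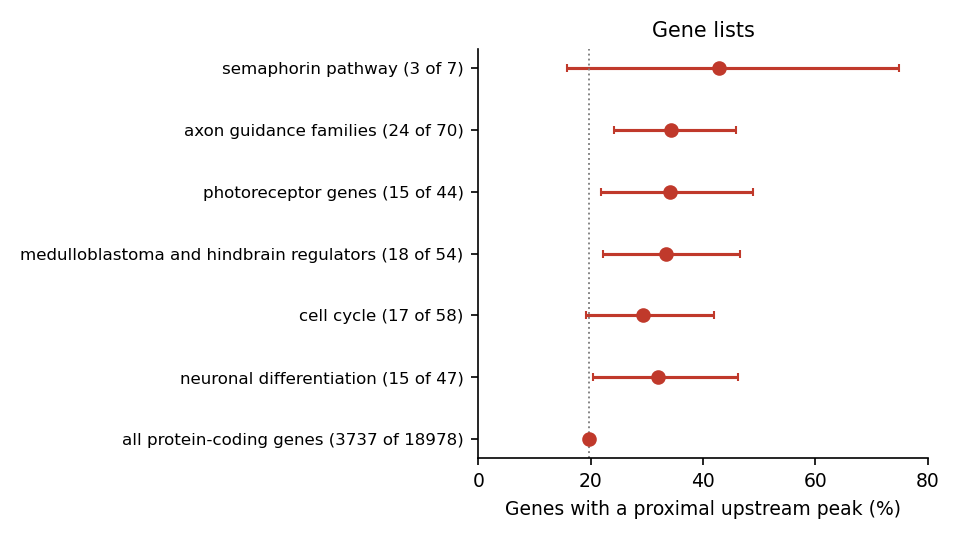
Share of genes with a proximal upstream peak (x axis, percent) in 6 gene lists and in all 18978 protein-coding genes (y axis), with Wilson 95% intervals. The dotted line marks all genes at 19.7%, and the lists lie between 29.3% for cell cycle genes and 42.9% for the 7 semaphorin pathway genes.

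Of the 9 semaphorin pathway genes, 7 lie on chromosomes 1 to 22 and 3 of these had a member, 1 each. NRP1, the neuropilin receptor of class 3 semaphorins, had a peak at chr10:33339684-33340146, 3699 bp upstream, where 92 fragments (74.2 to 113) gave a fold enrichment of 13.7. NRP1 had no core promoter peak. SEMA6C, a membrane-bound ligand gene, had a peak 1654 bp upstream at chr1:151148103-151148557 with 58 fragments (44.04 to 74.98) and 7.27. Its core promoter peak was higher, at 211 fragments and 26.6. PLXNA2, a plexin receptor gene, also had 58 fragments and 6.24, 4262 bp upstream at chr1:208248426-208249110 in a lncRNA gene, and 13.1 at its core promoter. SEMA6A and NRP2 had a core promoter peak only, at 5.95 and 9.61. SEMA4D and PLXND1 had neither. PLXNA3 and L1CAM lie outside chromosomes 1 to 22.

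The 28 members of the axon guidance families had a median fold enrichment of 5.86, compared with 5.54 over all members, and ranged from 2.97 to 29.1, and 6 of them reached 10, against 22.03% of all members. UNC5C held the highest, and its other member 1570 bp upstream had 31 fragments and 3.67. SEMA6D had 199 fragments and 18.9 at 2142 bp, with 5.03 at its core promoter. SEMA6B had 146 fragments and 18.1 at 3234 bp and no core promoter peak. SEMA6D and SEMA6B encode transmembrane semaphorins.

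The 16 members of photoreceptor genes had a median of 8.23, compared with 5.54 over all members, and 6 of the 16 reached a fold enrichment of 10, against 22.03% of all members. No test of these differences was made. OTX2 and its relative CRX drive many of these genes in the retina. CNGA1, a subunit of the rod cyclic nucleotide channel, had 334 fragments and 30.7, 1732 bp upstream, in an intron of another protein-coding gene. UNC119 had 16.7, with its summit in an exon of another such gene. GUCA1B and GUCA1A, which encode activators of retinal guanylate cyclase, had 14.8 and 13.8, with 2838 and 3281 bp to their TSS. The summit at GUCA1A also lay in an intron of another protein-coding gene. A core promoter peak was found for GUCA1A (19.7) and for none of the other 3.

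The 22 members of medulloblastoma and hindbrain regulators had a median of 5.27, compared with 5.54 over all members. A fold enrichment of 10 was reached by 6 of the 22, against 22.03% of all members. In this list, SNCAIP was followed by OTX1, the paralog of OTX2, with 126 fragments and 18.0. The summit at OTX1 lay 1763 bp upstream, within 1 kb of a lncRNA start, and the core promoter peak had 4.62. SOX4, a progenitor transcription factor gene, had 15.7 at 4875 bp and 14.2 at its core promoter. MEIS2, a homeobox gene, had 15.7 at 4052 bp and no core promoter peak.

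Cell cycle genes had a median of 4.68 over 21 members, compared with 5.54 over all members, and 2 of the 21 reached a fold enrichment of 10, against 22.03% of all members. MCM4, a subunit of the replicative helicase, had 176 fragments and 21.7 at 3804 bp against 6.54 at its core promoter. FOXM1, a mitotic transcription factor gene, had 14.6 upstream and 2.06 at the core promoter. These summits of MCM4 and FOXM1 lay in introns of other protein-coding genes. MYBL2 and RB1, both regulators of the cell cycle, had 9.27 and 9.24. Neuronal differentiation genes had a median of 3.99 over 16 members, compared with 5.54 over all members. A fold enrichment of 10 was reached by 1 of the 16, against 22.03% of all members. The member that reached it was that of NLGN1, a synaptic adhesion gene, with 90 fragments and 12.3. INA, a neurofilament gene, had 8.61, in an intron of another protein-coding gene. SCG2, a secretogranin gene, had 8.37, and GAP43, a growth cone protein gene, had 8.14 and 6.68.

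The share of genes with a member varied among chromosomes. It was lowest on chromosomes 21 (10.0%) and 7 (11.6%) and highest on chromosome 18 (24.8%). Chromosome 7 had 107 members, or 31.1 per Mb of eligible DNA (25.5 to 37.6), compared with 72.8 (62.8 to 83.8) on chromosome 8. The number of all peaks moved alongside, with 4339 on chromosome 7 and 7633 on chromosome 8, and its part in the result was not tested. Members made up 2.47% of the peaks of chromosome 7 and 2.52% of those of chromosome 8, and 9.81% on chromosome 19. The median fold enrichment of members was higher on chromosome 7, at 6.54, than on any other of chromosomes 1 to 22.

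The nearest members, upstream of FOXC1 and CASP8, had summits at 1001 bp with fold enrichments of 4.77 and 4.83. Just outside the inner bound, at 1000 bp, peaks of ART5 and PRRT1 had 5.95 and 3.95. The farthest members, of EEF2 and RP1L1 at 4999 bp, had 5.73 and 5.64. Beyond 5 kb, peaks of SLC6A9 at 5002 bp and EPN2 at 5007 bp had 19.3 and 9.31.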

How the data were processed

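Alignment by the authors used Bowtie2 2.2.4 and GRCh38. Peaks were called in MACS2 2.1.0.20140616, with Input as control, a q-value cutoff of 0.05 and 1 fragment kept per position. Duplicates were 27.9% of ChIP and 30.3% of Input fragments. The deposited pileup is a coverage signal at the summit, scaled to the Input depth. Fold enrichment, as deposited, is a ratio in which pileup is divided by local input after adding 1 to each. The deposited −log10 q-value comes from MACS2 and has no replicate behind it, and the −log10 p-value was not used. A fragment adds 0.735 to the pileup, and 100% of pileups were whole fragments within 0.02. The local input implied by these values has a floor of 3.98.

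Gene starts came from GENCODE release 44 as recorded on GRCh38, for 18978 of 19229 protein-coding genes of chromosomes 1 to 22; 251 had no recorded position. Promoter stretches came from RefSeq (GRCh38.p14). Other members' sequences are not shown. Class assignment was tested on simulated peaks, where 1600 of 1600 were recovered. Intervals were Wilson for shares, Poisson for fragments and densities, and order-statistic for medians, all at 95%. Named are the genes of the 20 highest members, up to 4 per list with every semaphorin pathway gene, the 5 with the most members (ties broken by the highest fold enrichment), those at the bounds, and 5 each with the largest ratio of upstream to core peak and of core to upstream peak. Further genes are named where a stretch of sequence, a host gene or the longest peak needed them, after their values were seen. The members and lists were chosen with earlier results of these data known. A gene list and a gene covered by these rules are not reported here. Computations ran in Python 3.11.15 (matplotlib 3.10.9 for plots, scipy 1.17.1 for intervals, numpy 2.4.6, pandas 2.3.3).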

Additional observations from a re-analysis of the deposited data

Results flagged for a closer look

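Peaks on the sex chromosomes were left out by the rule, and 72 summits there lay 1 to 5 kb upstream of a protein-coding TSS and not within 1 kb of any. Their median fold enrichment was 6.07 and the highest 27.2. On chromosome X, 62 of 841 genes (7.37%) had such a summit.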

How the results depend on the processing

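Of 48 comparisons of 8 results with 6 alternatives, 20 stayed within the interval of the reported value, or within 1.5 times of it for a count, and 28 moved. With a −log10 q of at least 5, the density was 51.3 per Mb, the share of genes with a member 17.4%, the median fold enrichment 6.25 and the share of these genes with a core promoter peak 51.6%. With a fold enrichment of at least 5 there were 2398 members, 2.85% of peaks, at 34.0 per Mb, in 12.2% of genes, with a median of 8.50, 34.8% with a core promoter peak and 12.8% near another start. With at least 1 bp of the peak in the interval and no base within 1 kb of a TSS, the values were 2.97% of peaks, 56.4 per Mb, 18.7% of genes, 62.3% with a core promoter peak and 12.5% near another start. With the TSS of every annotated transcript there were 9357 members, 6.98% of peaks, at 54.4 per Mb, in 32.2% of genes, with a median of 5.90, 72.7% with a core promoter peak, 3.76% near another start and 39 axon guidance genes. With RefSeq gene records 17.5% lay near another start. Of the 4221 members, 3568 stayed in this class with RefSeq records and 3854 with every transcript. Without peaks of high local input the density was 57.6 per Mb, the share of genes 19.1% and the share with a core promoter peak 55.5%. The causes were not tested, apart from thresholds that remove peaks or starts that add them. No paired analysis was possible because there is 1 library per condition. A single ChIP library leaves the reproducibility of each peak unknown, and the shallower Input sets the floor of the background.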
